A study of Mus musculus with 12 samples.

Results

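Astrocyte cultures grown from the brains of WT mice at postnatal day 6 (P6) were compared with WT cultures from postnatal day 1 (P1). The 4 libraries, 2 in each group, were picked by their labels for genotype and time out of 12 in the series, which also holds WT libraries of postnatal day 8 (P8) and libraries labelled Rack7-cKO at each of the same days. According to the methods, WT stands for hGFAP-cre::Rack7+/+, so the WT mice too carried a Cre recombinase driven by the human GFAP promoter, with both copies of Rack7 (the gene Zmynd8) intact, and the libraries labelled cKO came from hGFAP-cre::Rack7 fl/fl mice. Brains were freed of meninges, dissociated and cultured in astrocyte medium, and the flasks were shaken to detach microglia and oligodendrocytes before the cells were grown further, so the postnatal day is the day of dissection and not the age of the cells at harvest. The sources used here do not say how many animals went into a culture, and p-values measure the spread between these libraries. Reads per gene were deposited as counts for 18903 genes. They are given here as CPM, counts scaled to a fixed library size, with TMM factors over all 12 libraries, and 17223 autosomal genes passed the filter on low counts.

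Astrocytes are the glial cells that take up glutamate and potassium, line vessels with their endfeet and secrete factors that act on synapses. They arise from radial glia around birth and go on to mature while neurons form circuits. Cultures of dissociated brain can also hold microglia, ependymal cells with motile cilia, vessel cells and fibroblasts of the meninges, and cultured astrocytes respond to interferons and cytokines with large sets of genes. In bulk RNA, fewer cells of a type and less RNA per cell cannot be told apart.

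Counts per library lay between 55681255 and 76280438 in the 4 libraries, and the Spearman correlation of the 2 libraries across genes was 0.992 at P1 and 0.991 at P6. The groups also differed in the sex of the animals, as read from the RNA. Xist, the RNA of the inactive X chromosome, was at 0.570 and 0.750 CPM at P1 and at 1436 and 1266 CPM at P6, whereas the summed level of the Y-linked genes Ddx3y, Eif2s3y, Kdm5d and Uty was 274 and 279 CPM at P1 and 0 in both P6 libraries. The libraries labelled cKO differed in the same way between P1 and P6, and in P8 WT Xist was again low (0.185 and 0.152 CPM) and the Y-linked sum high (344 and 321 CPM). Postnatal day and sex therefore cannot be told apart in this comparison, and the results below are restricted to autosomal genes. Zmynd8 itself was at 136 and 136 CPM at P1 and 114 and 116 CPM at P6 in WT, against 213 and 216 CPM and 242 and 230.5 CPM in the libraries labelled cKO, which were not lower. Since the deposited counts do not show the deleted exons apart from the rest of the gene, this does not check the label, and the label is used here as given. For the protein, the paper shows a RACK7 immunoblot of primary astrocytes from both genotypes.

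At P6, 2108 autosomal genes were higher than at P1 and 1875 were lower, at an adjusted p below 0.05 in edgeR's quasi-likelihood test and a fold change of at least 1.5. That is 12.2% of the genes tested for the rises and 10.9% for the falls, and these shares are the background for every count of list members below. The median change of all autosomal genes was 0.00 on the log2 scale. Changes of at least 2-fold were found for 1374 and 1179 genes, and changes of at least 8-fold for 387 and 236 genes. Among the called genes, 92 had no count in either P1 library and 57 had none in either P6 library. A count of 0 is to be read with care in this table: 24 genes had no count in 1 library of a group and at least 100 counts in the other, which is more than counting noise gives.

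**Figure D1:**
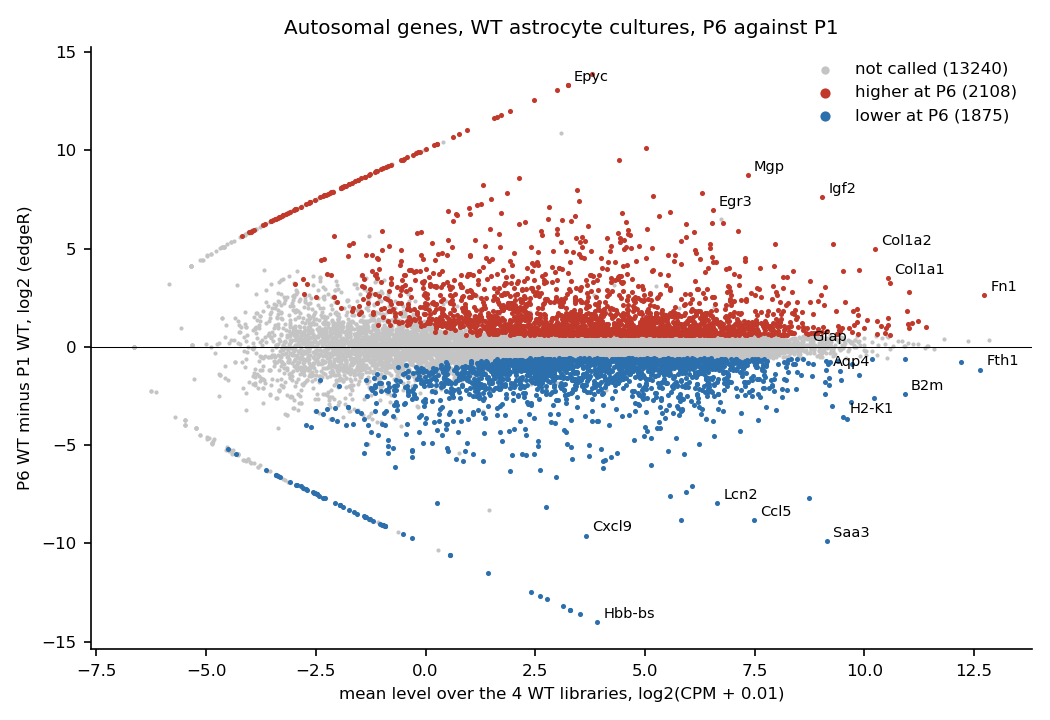
Change of each autosomal gene from P1 WT to P6 WT (edgeR, log2; vertical axis) against its mean level over the 4 WT libraries (log2 of CPM plus 0.01; horizontal axis), with 2108 genes called higher in red, 1875 called lower in blue and the others in grey. The straight streaks above and below are genes with no count in 1 of the 2 groups, whose fitted change depends on the prior count. Rises such as Fn1 and Col1a1 and falls such as Fth1 and B2m lie among the most abundant genes.

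The largest changes were ranked among genes with at least 5 CPM in the higher group and no overlap between groups. Symbols of the form Gm plus digits or ending in Rik were left out of the ranking. Of the 12 largest rises, 9 had no count at P1. C4bp (ENSMUSG00000026405, chr1:130634773-130661632), which encodes the complement inhibitor C4b-binding protein, was at 0 in both P1 libraries and at 28 and 27.4 CPM at P6. Against a floor of 3 counts over the P1 group this is at least 1302-fold higher. Epyc (ENSMUSG00000019936, chr10:97644068-97682454), the small leucine-rich proteoglycan epiphycan, went from 0 in both P1 libraries to 17.2 and 20.4 CPM, at least 885-fold higher, and stood at 307 and 312 CPM in P8 WT. Prdm6 (ENSMUSG00000069378, chr18:53463583-53575907), a transcriptional repressor known from vascular smooth muscle, was at 0 in both P1 libraries and at 17.5 and 20.3 CPM at P6, at least 888-fold higher. The proton pump subunit Atp6v0a4 (16.2 and 15.6 CPM at P6), the secreted protein Fam19a1 (11.6 and 10.6 CPM), the guanylate cyclase receptor Gucy2c (8.55 and 6.54 CPM), the prolactin family member Prl2c2 (6.99 and 6.04 CPM), the receptor phosphatase Ptprq (6.03 and 6.38 CPM) and the dynein heavy chain Dnah8 (6.00 and 5.74 CPM) were also at 0 in both P1 libraries. Presence in both P6 libraries was a condition for picking these 9 genes. In P8 WT, Prl2c2 was back at 0.0336 and 0.0554 CPM, while the other 8 were at or above 6 CPM in both libraries.

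The remaining 3 of the largest rises were measured at both days. Mgp (ENSMUSG00000030218, chr6:136872435-136875823), matrix Gla protein, an inhibitor of calcification made by fibroblasts and vessel walls, had 0.704 and 0.786 CPM at P1 and 319.7 and 326 CPM at P6, a log2 change of 8.75 (SE 0.18, edgeR adjusted p = 1.25e-09). The leucine-rich proteoglycan Aspn (asporin) had 0.0671 and 0.0492 CPM at P1 and 41.4 and 42.8 CPM at P6 (log2 change 9.49, adjusted p = 2.50e-08), and its exons share bases with Cenpp on the other strand. Ptgis, prostacyclin synthase, had 0 and 0.0983 CPM at P1 and 62.0 and 67.0 CPM at P6 (log2 change 10.12, adjusted p = 3.54e-06). That both P6 libraries stood above both P1 libraries was a condition for picking these genes. By absolute level, the largest gains were those of Fn1 (fibronectin), from 1993 and 1784 CPM to 12624 and 10675 CPM, and of the collagen chains Col4a1 (297 and 291 CPM to 2797 and 2785 CPM), Col1a1 (233 and 249 CPM to 2727 and 2719 CPM) and Col1a2 (74.8 and 74.3 CPM to 2324 and 2384 CPM). The scaffold protein Akap12 (528 and 523 CPM to 3799 and 3467 CPM) and the integrin subunit Itgb1 (897 and 906 CPM to 3196 and 3082 CPM) completed the 6 largest gains. The log2 change of Fn1 was 2.63 (SE 0.08).

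The 12 largest falls held the globins and genes of acute inflammation. The haemoglobin genes Hbb-bs (ENSMUSG00000052305, chr7:103826534-103828096; 33.4 and 27.0 CPM at P1), Hba-a1 (23.5 and 22.2 CPM), Hba-a2 (21.0 and 18.3 CPM) and Hbb-bt (16.6 and 10.5 CPM) had no count in either P6 library. Hbb-bs was thus at least 1327-fold lower, and reads of the near-identical pairs Hba-a1 and Hba-a2, and Hbb-bs and Hbb-bt, may have been given to either copy. Prnd (doppel, a relative of the prion protein; 17.9 and 21.5 CPM at P1), the pantetheinase Vnn3 (17.3 and 17.7 CPM), the macrophage arginase Arg1 (11.2 and 13.0 CPM) and the schlafen Slfn1 (11.8 and 9.24 CPM) were also at 0 in both P6 libraries, and Prnd shares exon bases with Prn. Saa3 (ENSMUSG00000040026, chr7:46711998-46715700), the acute-phase serum amyloid A of inflamed tissue, had 1103 and 1151 CPM at P1 and 0.663 and 1.68 CPM at P6, a log2 change of -9.89 (SE 0.31, adjusted p = 1.71e-08). The chemokine Ccl5 had 359 and 352 CPM at P1 and 0.363 and 1.20 CPM at P6 (log2 change -8.81, adjusted p = 1.02e-07), the interferon-gamma-induced chemokine Cxcl9 26.1 and 24.0 CPM at P1 and 0 and 0.0584 CPM at P6 (log2 change -9.61), and the non-classical MHC gene H2-Q6 110.4 and 114 CPM at P1 and 0.426 and 0.0876 CPM at P6 (log2 change -8.79). For Ccl5, Saa3 and H2-Q6 the 2 P6 libraries differed from each other by more than 2-fold at levels below 2 CPM, but every P1 library was above 100 CPM. By absolute level the largest losses were those of Fth1 (ferritin heavy chain; 8839 and 8721 CPM to 3832 and 4048 CPM), B2m (the light chain of MHC class I; 3237 and 3272 CPM to 571 and 649 CPM), Lyz2 (lysozyme; 5856 and 5908 CPM to 3432 and 3533 CPM), Adgre1 (F4/80, a macrophage receptor; 2039 and 2031 CPM to 333 and 328 CPM), C3 (complement component; 1428 and 1439 CPM to 109 and 119 CPM) and H2-K1 (MHC class I; 1357 and 1356 CPM to 109 and 117 CPM).

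**Figure D2:**
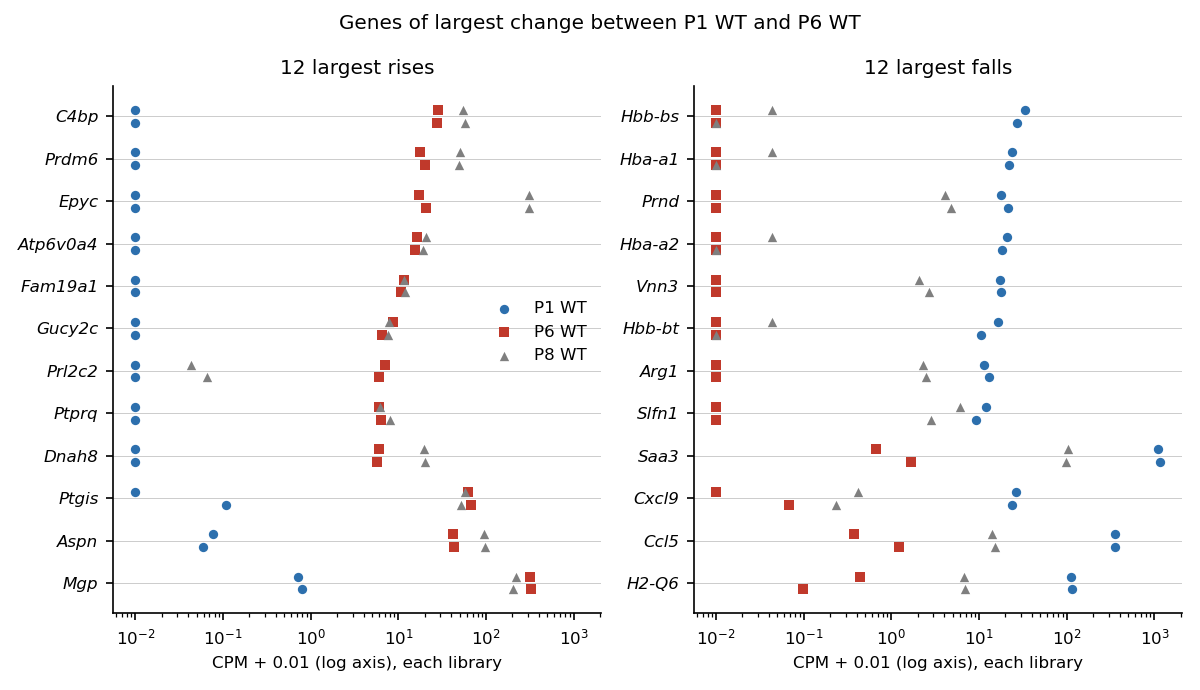
Level in each WT library (CPM plus 0.01, log axis) of the 12 genes of largest rise (left) and largest fall (right) between P1 (blue circles) and P6 (red squares), with the P8 WT libraries as grey triangles. Only genes whose P1 and P6 points lie apart could be picked, and symbols of the form Gm plus digits or ending in Rik were left out. For Prl2c2 the P8 points lie near P1 while for Epyc they lie above P6.

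Interferon-stimulated genes fell almost throughout. These genes are switched on when cells sense interferon or viral nucleic acid. Of 55 members tested, 49 fell and 1 rose, against 10.9% and 12.2% of all genes, and the median change was -2.21 (0.00 over all genes). Their summed level went from 7534 and 7333 CPM at P1 to 1335 and 2756 CPM at P6, so the P6 libraries differed from each other by about 2-fold and both lay below P1. Among the members that the naming rule picks, Ifit3, one of the interferon-induced proteins with tetratricopeptide repeats, had 516 and 474 CPM at P1 and 41.8 and 178 CPM at P6 (log2 change -2.17, adjusted p = 0.0125), the restriction factor Bst2 (tetherin) 378 and 383 CPM at P1 and 73.0 and 123 CPM at P6 (log2 change -1.96, adjusted p = 2.03e-04) and the chemokine Cxcl11 7.58 and 7.36 CPM at P1 and 0.0631 and 0.117 CPM at P6 (log2 change -6.33, adjusted p = 9.23e-05). Without the second P6 replicate 52 members fell, and without the first 48 did. The one member that rose, Ifi27 (59.5 and 57.8 CPM at P1 and 82.8 and 101 CPM at P6), lost its call without the second P6 replicate (log2 change 0.50). Not called were Trim25, Ifi35, Irgm1, Tgtp1 and Tgtp2.

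The promoters of many of these genes carry the interferon-stimulated response element (ISRE), a site bound by transcription factors that interferon activates. The letters GAAANNGAAA, on either strand, were searched in the 250 bases before each RefSeq gene start (GRCm38.p6), where 3.46% of 27025 promoters held a match. Of the 38 members with a promoter in that table, 21 (55.3%) held a match, with a median log2 change of -2.19, and the 17 without one had a median of -1.95. Stretches of 30 bases around a match are shown for members that fell and encode well-known effectors, with the matched letters in capitals.
Isg15 (ubiquitin-like modifier; chr4:156200865-156200894, minus strand): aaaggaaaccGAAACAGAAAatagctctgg
Ifit1 (binds viral RNA caps; chr19:34640775-34640804, plus strand): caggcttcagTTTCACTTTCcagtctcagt
Ifit3 (partner of Ifit1; chr19:34583397-34583426, plus strand): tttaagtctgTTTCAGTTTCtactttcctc
Bst2 (tetherin; chr8:71537577-71537606, minus strand): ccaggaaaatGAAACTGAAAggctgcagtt
Cxcl10 (T-cell chemokine; chr5:92349083-92349112, minus strand): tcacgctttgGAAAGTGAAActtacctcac
Oas3 (synthase of 2'-5' oligoadenylate; chr5:120777715-120777744, minus strand): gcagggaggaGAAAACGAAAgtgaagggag
Gbp5 (guanylate-binding protein; chr3:142496759-142496788, plus strand): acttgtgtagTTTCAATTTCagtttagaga
Apart from Ifit3 and Bst2, these genes were picked for their match and their fall after the values were seen. The match was also held by Irgm1, Tgtp1 and Tgtp2, with log2 changes of -0.22, 0.19 and -0.17, which are 3 of the 5 members not called. Isg15 had 111 and 119 CPM at P1 and 10.6 and 51.1 CPM at P6 (log2 change -1.90, adjusted p = 0.031), and Ifit1 246 and 242 CPM at P1 and 23.3 and 114 CPM at P6 (log2 change -1.83, adjusted p = 0.0336). In both the first P6 replicate was the lower one. Cxcl10 had 107 and 100.2 CPM at P1 and 9.59 and 12.7 CPM at P6 (log2 change -3.22), Oas3 100.4 and 102 CPM at P1 and 5.46 and 12.7 CPM at P6 (log2 change -3.47) and Gbp5 67.7 and 68.3 CPM at P1 and 1.56 and 3.81 CPM at P6 (log2 change -4.66). A match in this window is a description of the letters and was not tested as a binding site.

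Genes of MHC and antigen presentation fell in the same cultures. Of 28 tested, 21 fell and 1 rose, with a median of -1.26 and a summed level of 10689 and 10772 CPM at P1 and 4555 and 4872 CPM at P6. Of the class I heavy chains, H2-D1 had 1429 and 1472 CPM at P1 and 195 and 219 CPM at P6 (log2 change -2.81, SE 0.07) and H2-K1 a log2 change of -3.59 (SE 0.05). The non-classical H2-Q7 had 94.3 and 95 CPM at P1 and 0.30 and 0.657 CPM at P6 (log2 change -7.61). Reads of class I genes, which share much sequence, may have been split between them. B2m fell with the heavy chains (log2 change -2.42, adjusted p = 1.11e-08). The class II chain H2-Eb1 was the member that rose, from 0.386 and 0.233 CPM to 3.98 and 3.85 CPM. Calr, the chaperone calreticulin, which helps to load class I, had 1063 and 1033 CPM at P1 and 1220.2 and 1267 CPM at P6 and was not called.

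Cytokine and chemokine genes moved both ways but mostly down. Among 46 chemokines and interleukins, 25 fell and 6 rose, with a median of -2.11. The list overlaps that of the interferon-stimulated genes, and the fall of Cxcl9 is counted in both. Ccl2, the monocyte attractant, had 251 and 247 CPM at P1 and 54.2 and 70.1 CPM at P6 (log2 change -2.0, adjusted p = 1.14e-06), and the inflammatory cytokine Tnf had 62.7 and 65.0 CPM at P1 and 11.8 and 13.3 CPM at P6 (log2 change -2.35, adjusted p = 1.73e-07). In contrast, the alarmin Il33 rose from 9.91 and 12.9 CPM to 70.0 and 63.3 CPM (log2 change 2.55) and Il34, a ligand of the microglial receptor Csf1r, from 2.35 and 2.25 CPM to 11.5 and 9.91 CPM (log2 change 2.22). In each of these genes the groups did not overlap, which with 2 libraries a group also held for genes not called, such as Apoe.

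Of 23 complement genes, 11 fell and 4 rose. C3 fell by 3.65 on the log2 scale, and Cfb, the factor B of the alternative pathway, had 60.6 and 59.5 CPM at P1 and 3.38 and 1.81 CPM at P6 (log2 change -4.54). The lectin-pathway protease Masp1 rose from 4.76 and 3.63 CPM to 25.4 and 17.4 CPM (log2 change 2.35). The C1q chains, which microglia make, were C1qa (1083 and 1084 CPM at P1 and 569.8 and 617 CPM at P6, log2 change -0.87), C1qb (718 and 737 CPM at P1 and 501 and 546 CPM at P6, log2 change -0.47, below 1.5-fold) and C1qc (891 and 917 CPM at P1 and 598 and 634 CPM at P6, log2 change -0.55, below 1.5-fold).

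The list of genes reported in reactive astrocytes was split. Of 35 tested, 18 fell and 8 rose, with a median of -0.80. H2-D1, given with the MHC genes above, is also a member of this list, so its fall is not a separate result here. Lcn2 (ENSMUSG00000026822, chr2:32384633-32388252), the secreted siderophore-binding lipocalin 2, had 209 and 191 CPM at P1 and 1.06 and 0.555 CPM at P6 (log2 change -7.96, adjusted p = 3.73e-08), and the metalloreductase Steap4 86.1 and 93.1 CPM at P1 and 2.41 and 2.15 CPM at P6 (log2 change -5.30, adjusted p = 5.36e-06). Steap4 was back at 92.7 and 93.5 CPM in P8 WT. Members that rose were the prostaglandin synthase Ptgs2 (23.4 and 22.2 CPM at P1 and 387 and 358 CPM at P6, log2 change 4.03) and the elastic-fibre protein Fbln5 (15.3 and 28.1 CPM at P1 and 262 and 261 CPM at P6, log2 change 3.59). The intermediate filament genes that define reactive astrocytes in tissue were not called: Gfap had 390.4 and 402 CPM at P1 and 396 and 437 CPM at P6 (log2 change 0.07, adjusted p = 0.348), and Vim had 2265 and 2236 CPM at P1 and 2469.6 and 2566 CPM at P6 (log2 change 0.16), which is below 1.5-fold.

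Microglia and macrophage markers were present at both days in spite of the shaking. Of 21 markers, 9 fell and 3 rose, none was at 0, and their summed level was 8495 and 8494 CPM at P1 and 6276 and 6463 CPM at P6. C1qa, C1qc and the protease Ctss (981 and 975 CPM at P1 and 398 and 432 CPM at P6, log2 change -1.24) were the most abundant at P1. Itgam, the integrin CD11b, had 379 and 357 CPM at P1 and 108 and 66.1 CPM at P6 (log2 change -2.08) and shares its exons with another identifier of the same name, so its counts are uncertain. Chosen after their values were seen, Tyrobp (186 and 184 CPM at P1 and 178 and 194 CPM at P6) and Csf1r (667 and 670.2 CPM at P1 and 537 and 521 CPM at P6) did not pass the test at 1.5-fold, Ptprc (CD45) fell from 358 and 283 CPM to 92.0 and 98.4 CPM, and the mannose receptor Mrc1 rose from 106 and 106 CPM to 511 and 498 CPM. The part of these cells in the fall of interferon, MHC, cytokine and complement genes was not tested.

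**Figure D3:**
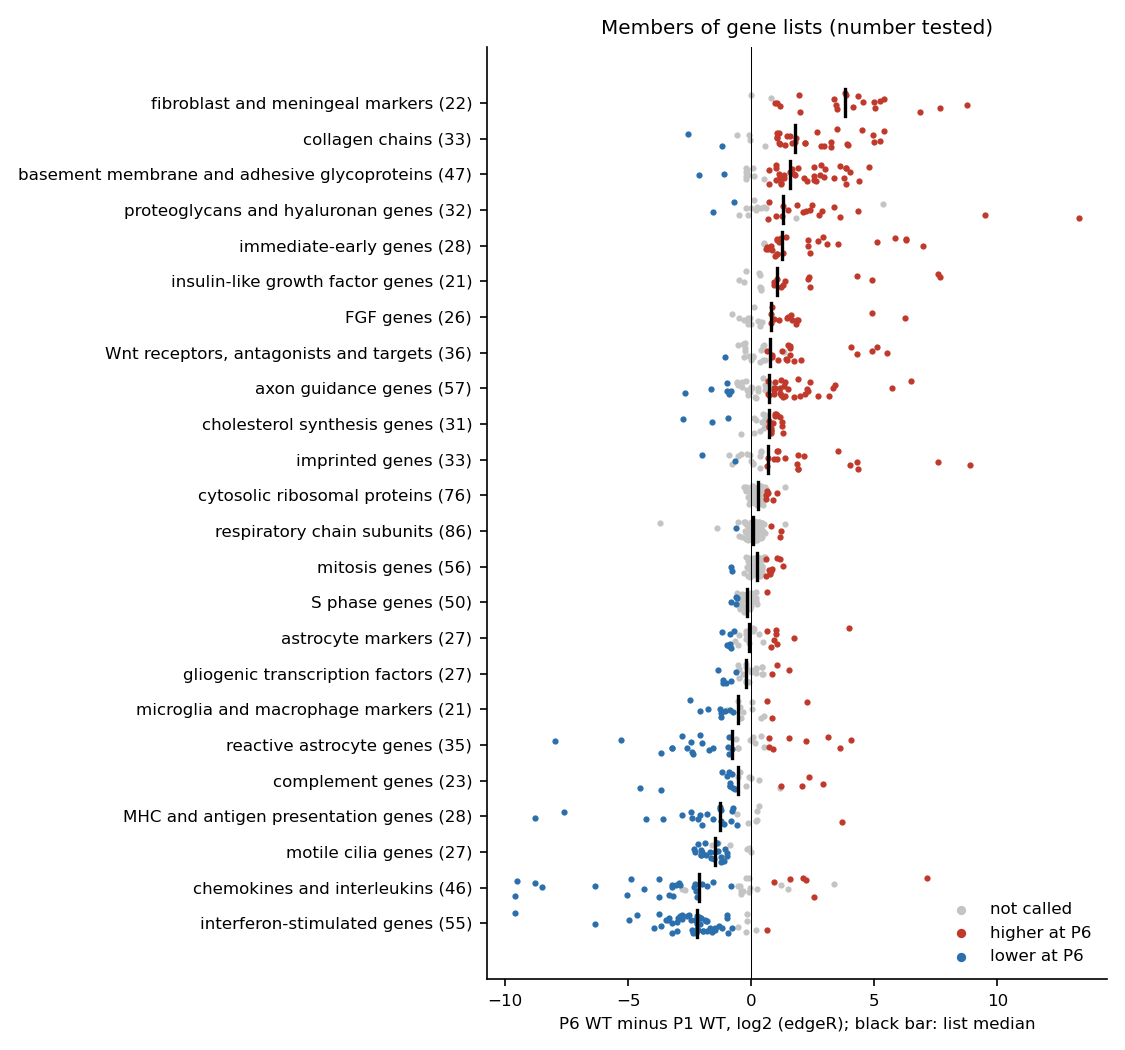
Change from P1 WT to P6 WT (edgeR, log2) of every tested member of 24 gene lists, with the number tested in brackets, called rises in red, called falls in blue, other members in grey and the list median as a black bar. The medians run from 3.82 for the fibroblast and meningeal markers to -2.21 for the interferon-stimulated genes, and those of ribosomal, respiratory chain and cell division genes lie near 0.

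Extracellular matrix genes rose with markers of fibroblasts. Collagens form the fibrils and sheets of the matrix, and of 33 collagen chains 27 rose and 2 fell, with a median of 1.77 and a sum of 2952 and 2923 CPM at P1 and 16737 and 16473 CPM at P6. The fibrillar chain Col3a1 (ENSMUSG00000026043, chr1:45311538-45349706) had 33.8 and 30.8 CPM at P1 and 1212 and 1206 CPM at P6 (log2 change 5.23, SE 0.07, adjusted p = 1.73e-10), and the microfibrillar chain Col6a3 2.77 and 2.46 CPM at P1 and 114 and 106 CPM at P6 (log2 change 5.4). Col1a1 and Col1a2, which together form collagen I, changed by 3.50 (SE 0.05) and 4.98 (SE 0.04). Per exonic length, Col1a1 stood at 36.7 RPKM at P1 and 415 RPKM at P6, and Col4a1, a chain of basement membranes that shares exon bases with Col4a2 on the other strand, at 39.4 and 374 RPKM. The 2 chains that fell were Col14a1 (57.5 and 55.7 CPM at P1 and 8.73 and 10.2 CPM at P6, log2 change -2.58) and Col22a1 (17.5 and 18.3 CPM at P1 and 8.85 and 7.01 CPM at P6, log2 change -1.18).

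Basement membrane and adhesive glycoproteins rose in 36 of 47 members and fell in 2, with a median of 1.58. Lamb1, a laminin chain, had 13.6 and 14.8 CPM at P1 and 306 and 291 CPM at P6 (log2 change 4.39) and the fibrillin Fbn2 5.05 and 4.93 CPM at P1 and 137 and 139 CPM at P6 (log2 change 4.79). Sparc, a collagen-binding glycoprotein that astrocytes also secrete, had 1817 and 1829 CPM at P1 and 3639 and 3601 CPM at P6 (log2 change 0.99) and the phosphoprotein Spp1 (osteopontin) 603 and 608 CPM at P1 and 1501 and 1567 CPM at P6 (log2 change 1.34). Tgfbi, which is made by macrophages among other cells, went the other way (454 and 448 CPM at P1 and 101 and 105 CPM at P6, log2 change -2.13). Of 32 proteoglycan and hyaluronan genes, 18 rose and 2 fell, namely Srgn, the proteoglycan of leukocyte granules (42.2 and 46.4 CPM at P1 and 15.1 and 14.7 CPM at P6), and Ptprz1, of glial progenitors (203 and 197 CPM at P1 and 121 and 125 CPM at P6). Among matrix proteases and their inhibitors 21 of 33 rose, with the gelatinase Mmp2 at 26.8 and 27.1 CPM at P1 and 495 and 431 CPM at P6 (log2 change 4.10) and the inhibitor Timp2 at 701 and 727 CPM at P1 and 1833 and 1758 CPM at P6 (log2 change 1.33), and 2 fell, Mmp9 (2.70 and 2.99 CPM at P1 and 0.126 and 0.277 CPM at P6) and Mmp3 (20.5 and 18.4 CPM at P1 and 6.90 and 6.96 CPM at P6).

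The markers of fibroblasts and meninges moved with these genes. Of 22 markers 20 rose and none fell, with a median of 3.82, and their sum went from 581 and 591 CPM to 7758 and 7814 CPM, and stood at 27779 and 27538 CPM in P8 WT. The list shares Col1a1, Col1a2, Col3a1 and Col15a1 with the collagens. It also holds Igfbp6, Dcn, Foxd1 and Crabp2. These are counted again below among the insulin-like growth factor, imprinted, patterning and retinoic acid genes, respectively. The part of fibroblasts in the changes of those lists was not tested. Transcription factors of meningeal and perivascular mesenchyme were among the risers. Foxd1 had 0.788 and 0.848 CPM at P1 and 92.3 and 97.0 CPM at P6 (log2 change 6.85, SE 0.26), and, chosen after their values were seen, Foxc1 10.7 and 11.4 CPM at P1 and 155 and 154 CPM at P6 (log2 change 3.81), Foxc2 0.503 and 0.639 CPM at P1 and 25.1 and 23.2 CPM at P6 (log2 change 5.38) and Tbx18 1.94 and 1.13 CPM at P1 and 51.4 and 48.0 CPM at P6 (log2 change 5.03). The proteoglycan Dcn (decorin) had 9.12 and 8.55 CPM at P1 and 174 and 181 CPM at P6 (log2 change 4.33). Dpt was at 0 in all 4 libraries, and Prrx1 had 89.6 and 84.7 CPM at P1 and 157 and 143 CPM at P6, which did not pass. Collagens and laminins without a place on the marker list also rose, such as Col6a3 and Lamb1, but absence from this list does not show which cells made them. The part of fibroblasts in the matrix changes was not tested.

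Growth factor pathways rose in part. Insulin-like growth factors act through Igf1r and are held by binding proteins, and 13 of 21 genes of this system rose while none fell. Igfbp6 among them is also a fibroblast and meningeal marker, and the part of fibroblasts in these rises was not tested. The ligand Igf2 (ENSMUSG00000048583, chr7:142650766-142666816) had 0.603 and 9.81 CPM at P1 and 1038 and 1062 CPM at P6 (log2 change 7.61, adjusted p = 1.24e-04), and its P1 libraries differed widely from each other but both lay far below P6, and its exons share bases with Igf2os. The binding protein Igfbp6 had 0.453 and 0.283 CPM at P1 and 68.7 and 76.8 CPM at P6 (log2 change 7.66, SE 0.19) and the abundant Igfbp5 1289 and 1328 CPM at P1 and 3023 and 3043 CPM at P6 (log2 change 1.21). Igfbp2 had 1573 and 1267 CPM at P1 and 2242 and 3202 CPM at P6 (log2 change 0.94, adjusted p = 0.00727), a call that was lost without the second replicate of either day. Of 26 FGF pathway genes 14 rose and none fell, among them the ligand Fgf7 (0.888 and 2.22 CPM at P1 and 125 and 116 CPM at P6, log2 change 6.24) and the feedback phosphatase Dusp6 (98.7 and 96.9 CPM at P1 and 217 and 213 CPM at P6, log2 change 1.14).

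Wnt ligands were split, with 4 of 14 rising and 4 falling. Wnt2 had 0.134 and 0.332 CPM at P1 and 16.3 and 15.0 CPM at P6 (log2 change 6.01) and Wnt5a, the most abundant ligand per length at P6 (5.02 RPKM at P1 and 8.55 RPKM at P6), 40.7 and 37.9 CPM at P1 and 60.7 and 73.0 CPM at P6 (log2 change 0.77). Wnt7a (11.6 and 10.2 CPM at P1 and 4.43 and 4.12 CPM at P6, log2 change -1.35) and Wnt7b (6.99 and 6.12 CPM at P1 and 1.18 and 1.96 CPM at P6, log2 change -2.06), ligands of the neural tube and cortex, fell. Receptors, antagonists and targets of Wnt rose in 18 of 36 members and fell in 1. The antagonists Dkk2 (0.536 and 0.393 CPM at P1 and 22.2 and 20.2 CPM at P6, log2 change 5.53) and Dkk3 (40.4 and 39.0 CPM at P1 and 120.0 and 114 CPM at P6, log2 change 1.56) were among the risers, while Sfrp1, an abundant antagonist, had 332 and 339.7 CPM at P1 and 228 and 236 CPM at P6 and did not reach 1.5-fold. The receptor Fzd3 was the member that fell (205 and 206 CPM at P1 and 103 and 95.6 CPM at P6, log2 change -1.05).

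BMP and TGF-beta genes rose in 12 and fell in 5 of 42. Inhba, a subunit of activin, had 20.8 and 21.4 CPM at P1 and 148 and 131 CPM at P6 (log2 change 2.73) and the follistatin-like Fstl1 379 and 370.3 CPM at P1 and 1448 and 1429 CPM at P6 (log2 change 1.94), while the ligand Gdf6 had 6.02 and 4.74 CPM at P1 and 1.99 and 2.19 CPM at P6 (log2 change -1.36). In the Sonic hedgehog pathway (4 of 12 up, 1 down) the ligand and its transcriptional effector moved apart. Shh had 104 and 94.9 CPM at P1 and 61.5 and 62.8 CPM at P6 (log2 change -0.68), whereas Gli1, the usual readout of the pathway, had 5.48 and 4.63 CPM at P1 and 19.8 and 20.3 CPM at P6 (log2 change 1.99) and the co-receptor Cdon 41.7 and 42.5 CPM at P1 and 159 and 149.8 CPM at P6 (log2 change 1.88). The Gli1 exons share bases with Arhgap9 on the other strand. Notch genes rose in 6 and fell in 1 of 21, with the target Hes1 at 18.3 and 15.3 CPM at P1 and 46.6 and 49.2 CPM at P6 (log2 change 1.51) and the ligand Dner at 36.6 and 33.9 CPM at P1 and 99.4 and 104 CPM at P6 (log2 change 1.53). The member that fell was Mfng, a glycosyltransferase that modifies Notch receptors (7.98 and 7.78 CPM at P1 and 4.07 and 4.58 CPM at P6, log2 change -0.86). Of 19 retinoic acid genes 8 rose and 2 fell. The degrading enzyme Cyp26b1 had 13.7 and 13.6 CPM at P1 and 219 and 212 CPM at P6 (log2 change 3.98) and the synthesizing enzyme Aldh1a1 25.9 and 23.8 CPM at P1 and 213 and 211 CPM at P6 (log2 change 3.09). Prostaglandin genes rose in 6 and fell in 3 of 21, where Ptgs2 rose and its constitutive relative Ptgs1 fell (82.9 and 78.8 CPM at P1 and 8.65 and 8.64 CPM at P6, log2 change -3.23).

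Immediate-early genes, the transcription factors and regulators that cells switch on within minutes of a stimulus, rose in 26 of 28 members and fell in none, with a median of 1.25. Their summed level was 1205 and 1225 CPM at P1, 3959 and 3961 CPM at P6 and 1575 and 1507 CPM in P8 WT. Egr3 (ENSMUSG00000033730, chr14:70077203-70082614) had 1.39 and 1.55 CPM at P1 and 188 and 182 CPM at P6 (log2 change 6.97, SE 0.22, adjusted p = 2.04e-08) and the orphan nuclear receptor Nr4a1 2.75 and 1.89 CPM at P1 and 184 and 181 CPM at P6 (log2 change 6.31, SE 0.25). Jun had 128 and 135 CPM at P1 and 300.4 and 307 CPM at P6 (log2 change 1.21) and Klf6 208 and 206 CPM at P1 and 362 and 377 CPM at P6 (log2 change 0.84). In P8 WT Egr3 stood at 15.3 and 13.1 CPM and Nr4a1 at 9.11 and 9.35 CPM, between the 2 earlier days. Ier3 (49.8 and 41.8 CPM at P1 and 63.0 and 66.1 CPM at P6) and Jund (40.3 and 41.7 CPM at P1 and 54.7 and 60.8 CPM at P6), named since they were the exceptions, did not reach 1.5-fold. The CArG box, the site of serum response factor, was found in the 250 bases before the start of 2 of 21 members with a promoter in the table, Egr2 and Zfp36, against 1.62% of all promoters.

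**Figure D4:**
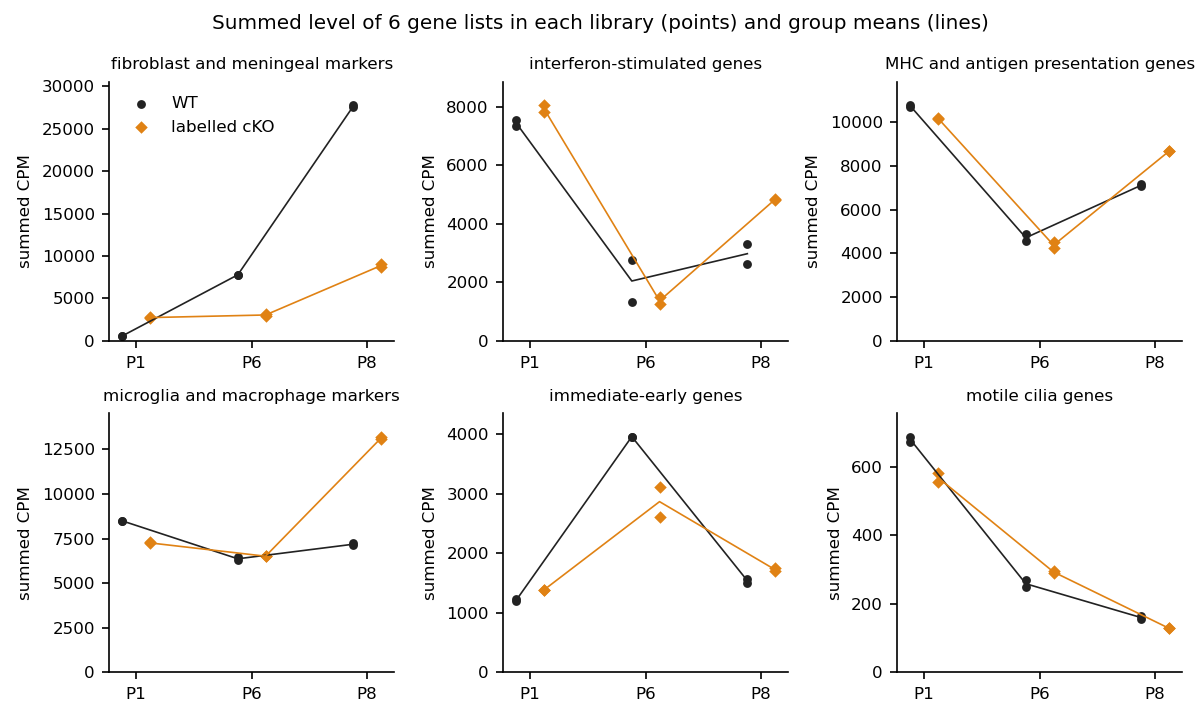
Summed CPM of 6 gene lists in each library (points) at P1, P6 and P8, with lines through the group means, in WT (black circles) and in the libraries labelled cKO (orange diamonds). Fibroblast and meningeal markers climb at each day in WT, the group means of interferon-stimulated and MHC genes are lowest at P6, immediate-early genes are highest at P6, and motile cilia genes fall at each day.

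The astrocyte markers did not move in 1 direction. Of 27 markers 8 rose, 7 fell and 12 were not called, and their sum was 6201 and 6380.1 CPM at P1 and 6358 and 6741 CPM at P6. The water channel Aqp4 (ENSMUSG00000024411, chr18:15389496-15410982) had 773 and 786 CPM at P1 and 344 and 342 CPM at P6 (log2 change -1.18, SE 0.07, adjusted p = 1.38e-06), the folate enzyme Aldh1l1 281 and 292 CPM at P1 and 132 and 155 CPM at P6 (log2 change -1.0) and the glutamate transporter Slc1a3 (GLAST) 416 and 433 CPM at P1 and 226 and 243 CPM at P6 (log2 change -0.86). In contrast, the calcium-binding S100b had 1.07 and 0.995 CPM at P1 and 15.7 and 16.9 CPM at P6 (log2 change 3.98, SE 0.23), the receptor Gpr37l1 14.4 and 16.3 CPM at P1 and 48.5 and 54.8 CPM at P6 (log2 change 1.75) and the peptidase Cpe 877 and 872 CPM at P1 and 1769 and 1828 CPM at P6 (log2 change 1.04). Apoe, one of the most abundant per length (456 RPKM at P1 and 489 at P6), had 962 and 988 CPM at P1 and 1010.4 and 1082 CPM at P6 and was not called.

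Among 27 gliogenic transcription factors 6 fell and 3 rose, and among 19 genes of neural stem cells and radial glia 6 fell and 3 rose. The progenitor factors Sox2 (168 and 158 CPM at P1 and 64.3 and 68.4 CPM at P6, log2 change -1.30) and Sox1 (40.9 and 39.6 CPM at P1 and 16 and 17.5 CPM at P6, log2 change -1.26) and the nuclear receptor Nr2f1 (68.9 and 63.3 CPM at P1 and 24.6 and 27.8 CPM at P6, log2 change -1.34) fell. The growth factor receptor Egfr rose (50.7 and 51.2 CPM at P1 and 329 and 299 CPM at P6, log2 change 2.62). Nes, the intermediate filament of progenitors, had 864 and 856 CPM at P1 and 839 and 889.5 CPM at P6 (log2 change 0.01), and Lmna, the nuclear lamin A, rose (117 and 132 CPM at P1 and 439.9 and 448 CPM at P6, log2 change 1.84). In the list of glutamate and glutamine handling (6 of 18 up, 3 down), the transporter Slc1a6 had 1.24 and 0.590 CPM at P1 and 48.4 and 47.5 CPM at P6 (log2 change 5.74) and the cystine-glutamate exchanger Slc7a11 50.2 and 49.3 CPM at P1 and 278 and 251 CPM at P6 (log2 change 2.41). Glul, glutamine synthetase, had 281 and 293 CPM at P1 and 391 and 403 CPM at P6 and stayed below 1.5-fold. Endfoot, channel and junction genes rose in 6 and fell in 5 of 17.

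Genes for factors that astrocytes secrete onto synapses rose in 6 of 16 and fell in 2. The thrombospondin Thbs2 had 93.8 and 95.6 CPM at P1 and 1401 and 1339 CPM at P6 (log2 change 3.85, SE 0.04) and Thbs1 1259.6 and 1218 CPM at P1 and 2913 and 2716 CPM at P6 (log2 change 1.18). The neurotrophin Bdnf had 7.74 and 7.83 CPM at P1 and 41.3 and 39.4 CPM at P6 (log2 change 2.37), while Sparcl1 (hevin) fell (103 and 105 CPM at P1 and 57.8 and 60.7 CPM at P6, log2 change -0.81). The part of fibroblasts, which also make thrombospondins, in these rises was not tested. Of 13 neuropeptide and granin genes 5 fell and 2 rose, and Vgf, a secreted neurotrophin-induced peptide precursor, had 264 and 270.4 CPM at P1 and 23.9 and 28.2 CPM at P6 (log2 change -3.36). Potassium channel subunits rose in 9 and fell in 10 of 38, and Kcnj10, the Kir4.1 channel of astrocyte endfeet, had 230.4 and 248 CPM at P1 and 200.1 and 215 CPM at P6 and was not called. Of 14 glutamate and GABA receptors 2 rose and 3 fell, of which the AMPA subunit Gria4 rose (8.13 and 6.75 CPM at P1 and 23.4 and 26.9 CPM at P6, log2 change 1.76) and Gria1 fell (49.5 and 49.5 CPM at P1 and 29.0 and 29.3 CPM at P6, log2 change -0.76).

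Genes of motile cilia fell. Motile cilia are beaten by axonemal dyneins on ependymal cells, under the control of Foxj1. Of the 27 genes on this list 21 fell and none rose, with a median of -1.49. The dynein heavy chain Dnah8, one of the 12 largest rises given above, is not on the list. Foxj1 had 214 and 221 CPM at P1 and 71.1 and 84.4 CPM at P6 (log2 change -1.49, SE 0.09), Ccdc40, which sets the spacing of axonemal arms, 23.7 and 19 CPM at P1 and 4.45 and 4.31 CPM at P6 (log2 change -2.28) and the tektin Tekt1 6.10 and 7.15 CPM at P1 and 1.15 and 1.45 CPM at P6 (log2 change -2.35). The list's sum was 671 and 688 CPM at P1, 249 and 269 CPM at P6 and 156 and 164 CPM in P8 WT. Ependymal and choroid plexus markers, which share Foxj1, Rsph1, Enkur and other members with this list, fell in 7 and rose in 1 (Folr1) of 11, and their sum went from 270.1 and 288 CPM to 99.6 and 119 CPM, and Tmem212 was at 0 in all 4 libraries. The part of ependymal cells in the fall was not tested.

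Markers of further cell types were measured as well. Oligodendrocyte lineage markers summed to 157 and 166 CPM at P1 and 192 and 209 CPM at P6 (4 of 12 up, 2 down), with Olig2 at 17.1 and 17.6 CPM at P1 and 18.6 and 20.7 CPM at P6. Neuron markers rose in 4 and fell in 2 of 10, while their sum was 295 and 276 CPM at P1 and 273 and 235 CPM at P6. Stmn2, one of the most abundant, had 123 and 122 CPM at P1 and 105 and 97.8 CPM at P6 and was not called. The growth cone protein Gap43 fell (26.6 and 26.3 CPM at P1 and 13.0 and 12.6 CPM at P6, log2 change -1.04). Picked after their values were seen, the secreted protein Reln (reelin) rose (2.33 and 2.04 CPM at P1 and 23.7 and 22.3 CPM at P6, log2 change 3.40), and Nrgn (neurogranin) was at 0 in both P1 libraries and at 1.99 and 1.53 CPM at P6. Endothelial markers rose in 6 of 10, with 4 not called, and their sum went from 81.1 and 81.9 CPM to 189.7 and 192 CPM. Most of this gain lay in the junction protein Cdh5 and the receptor Flt1. Cdh5 had 1.54 and 1.72 CPM at P1 and 55.7 and 57.0 CPM at P6 (log2 change 5.11). Flt1 had 5.78 and 6.00 CPM at P1 and 39.8 and 33.9 CPM at P6 (log2 change 2.64), whereas Sox18 stayed below 1 CPM. Mural cell markers rose in 6 and fell in 1 of 12, and their sum was 2906 and 2916 CPM at P1 and 3673 and 3786 CPM at P6. It was carried by Acta2 (1675 and 1679 CPM at P1 and 2010.4 and 2078 CPM at P6), and the likewise contractile Tagln (856 and 849.7 CPM at P1 and 1154 and 1198 CPM at P6), neither of which reached 1.5-fold. The member that fell, Cnn1, the contractile protein calponin and the next most abundant, had 192 and 198 CPM at P1 and 105 and 124 CPM at P6 (log2 change -0.77). Blood cell markers, the 4 globins and S100a8, had a sum of 94.8 and 78.2 CPM at P1 and were at 0 in both P6 libraries.

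Many patterning and imprinted genes differed between the days. Of 45 patterning factors 15 rose and 12 fell. Lmx1b, a factor of the midbrain and of mesenchyme, had 0.369 and 0.799 CPM at P1 and 11.3 and 9.88 CPM at P6 (log2 change 4.14) and Zic2, of the dorsal midline and meninges, 21.8 and 23.1 CPM at P1 and 42.6 and 47.8 CPM at P6 (log2 change 1.01). Pax3 fell (11.2 and 12.8 CPM at P1 and 3.19 and 3.17 CPM at P6, log2 change -1.92). Hox genes, which mark the hindbrain and spinal cord, were at low levels, with a sum of 11 and 11.7 CPM at P1 and 3.66 and 4.44 CPM at P6. Of 12 tested 2 fell, which at 16.7% is near the 10.9% of all genes, and none rose. Of these 2, Hoxb4 had 2.63 and 2.63 CPM at P1 and 1.01 and 0.905 CPM at P6. Axon guidance genes rose in 30 and fell in 6 of 57, such as Sema3d (0.771 and 1.11 CPM at P1 and 50.9 and 48.7 CPM at P6, log2 change 5.71) and Epha1 (0.134 and 0.160 CPM at P1 and 14.5 and 12.7 CPM at P6, log2 change 6.50) up and Ephb2 (142 and 138 CPM at P1 and 44.3 and 45.8 CPM at P6, log2 change -1.64) down. Imprinted genes rose in 18 and fell in 2 of 33, among them Igf2, Dcn and the non-coding RNA H19, picked after its values were seen (8.33 and 10.6 CPM at P1 and 186 and 189 CPM at P6, log2 change 4.30), and Gnas, the stimulatory G protein, had 506 and 517 CPM at P1 and 831 and 806 CPM at P6 (log2 change 0.68).

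Genes that serve every cell were seldom called. Of 76 cytosolic ribosomal proteins 6 rose and none fell, with a median of 0.29, and of 86 respiratory chain subunits 3 rose and 1 fell, with a median of 0.07. Glycolysis and lactate genes rose in 2 and fell in 3 of 34, among the latter the lactate exporter Slc16a3 (39.0 and 41.7 CPM at P1 and 14.5 and 13.7 CPM at P6, log2 change -1.52). Of the division genes, 1 of 50 S phase genes rose and 4 fell, and 9 of 56 mitosis genes rose and 2 fell, beside 12.2% and 10.9% of all genes. The proliferation marker Mki67 had 235 and 235 CPM at P1 and 275 and 239.8 CPM at P6 (log2 change 0.13, adjusted p = 0.189) and Top2a 191 and 188 CPM at P1 and 199 and 195 CPM at P6. Cell cycle inhibitors and p53 targets rose in 9 and fell in 2 of 32. Cdkn2a, the locus of p16 and p19 and a mark of long culture, had 4.91 and 3.23 CPM at P1 and 38.7 and 40.1 CPM at P6 (log2 change 3.28, adjusted p = 3.18e-06), and the cyclin Ccnd1 had 971 and 978 CPM at P1 and 1892 and 1888 CPM at P6 (log2 change 0.96).

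Cholesterol genes rose in 16 and fell in 3 of 31, with a median of 0.70. Insig1, which restrains the SREBP pathway, had 60.8 and 56.4 CPM at P1 and 129.7 and 146 CPM at P6 (log2 change 1.24). The exporter Abcg1 (93.8 and 99.2 CPM at P1 and 17.0 and 11.2 CPM at P6, log2 change -2.78) and the oxysterol receptor Nr1h3 (8.23 and 9.25 CPM at P1 and 2.62 and 3.11 CPM at P6, log2 change -1.61) fell. Metallothioneins and NRF2 targets rose in 8 and fell in 4 of 31, with the quinone reductase Nqo1 at 7.85 and 6.30 CPM at P1 and 59.0 and 50.8 CPM at P6 (log2 change 2.96) and the mitochondrial superoxide dismutase Sod2 at 192 and 193 CPM at P1 and 56.8 and 53.3 CPM at P6 (log2 change -1.81). Unfolded protein and integrated stress response genes rose in 4 and fell in 3 of 34, with Trib3 down (5.72 and 5.27 CPM at P1 and 1.36 and 1.61 CPM at P6, log2 change -1.89).

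Contractile genes rose in 12 and fell in 1 of 24, and Actg2, the smooth muscle gamma-actin, had 0.536 and 0.786 CPM at P1 and 155 and 156 CPM at P6 (log2 change 7.85, SE 0.18). Integrins were split, with 7 of 22 up and 6 down: Itgb3 had 1.31 and 0.774 CPM at P1 and 22.8 and 23.7 CPM at P6 (log2 change 4.50), whereas the leukocyte integrin Itgal had 379 and 394 CPM at P1 and 48.3 and 42.6 CPM at P6 (log2 change -3.09). Intermediate filament genes rose in 5 of 11 and fell in none. Clustered histone genes rose in 3 of 53 and polycomb and Zmynd8 genes in 3 of 33, with none down in either list, and the demethylase Kdm6b had 37.6 and 36.3 CPM at P1 and 90.7 and 82.9 CPM at P6 (log2 change 1.23). Clustered protocadherins rose in 8 of 41. Single replicates decided some of these calls: Pcdhga1 had 7.29 and 5.57 CPM at P1 and 104 and 5.96 CPM at P6, shares its constant exons with the rest of the cluster, and had a log2 change of -0.11 without the first P6 replicate.

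The same step was read in the libraries labelled cKO, which share no library with the WT comparison. There 1885 genes were higher at P6 (10.9%) and 1801 lower (10.5%). Of the 2108 genes that rose in WT, 1000 rose in the other genotype too, which is 47.4% of the WT list and 53.1% of the other, and 156 fell. Of the 1875 genes that fell in WT, 1099 fell in both (58.6% and 61.0% of the lists) and 36 rose. The same sign was found for 80.2% of the WT rises and 89.2% of the WT falls, where 50% of all genes had each sign. The P6 libraries of both genotypes carried Xist RNA, so sex is shared by the 2 steps as well.

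Interferon-stimulated genes, MHC genes, motile cilia genes and immediate-early genes moved in the same direction in both. Of the interferon-stimulated genes 53 fell in the libraries labelled cKO (median -2.92), of the MHC genes 22 (median -1.41) and of the motile cilia genes 18 (median -1.16), and 16 immediate-early genes rose (median 0.87). The markers of fibroblasts and meninges did not follow. In the libraries labelled cKO 4 of them rose and 11 fell (median -1.24), and their sum was 2806 and 2692 CPM at P1 and 3145 and 2966 CPM at P6. Collagen chains rose in 12 and fell in 9 there.

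The difference between the steps was tested gene by gene as an interaction. It passed an adjusted p below 0.05 for 2627 autosomal genes (15.3%), among them 19 of 22 fibroblast and meningeal markers, 21 of 33 collagen chains and 22 of 28 immediate-early genes, but 5 of 55 interferon-stimulated, 3 of 28 MHC and 4 of 27 motile cilia genes. Col3a1 rose in WT and fell in the libraries labelled cKO (369 and 370.1 CPM to 22.8 and 25.9 CPM, log2 change -3.92), an interaction of -9.15 (adjusted p = 6.91e-11). For Dcn the step was 4.33 in WT and -5.10 in the other genotype, an interaction of -9.43 (adjusted p = 2.04e-08). The 4 most negative interactions among the clearly changed genes were those of Epyc, Prdm6, Atp6v0a4 and Prl2c2, each at 0 in both P1 WT libraries, and Epyc was at 1.85 and 1.63 CPM at P1 and at 0 in both P6 libraries in the libraries labelled cKO. The 4 most positive were those of Prnd, Arg1, Pilrb1 and Gdf6. Gdf6 had 5.71 and 6.72 CPM at P1 and 43.8 and 41.2 CPM at P6 there, an interaction of 4.13 (adjusted p = 3.32e-05), and the immune receptor Pilrb1 12.9 and 12.7 CPM and 0.975 and 1.18 CPM. The exchanger Slc7a11 went from 78.6 and 72.9 CPM to 10.7 and 12.2 CPM, and Ptgs2 from 105 and 108 CPM to 34.4 and 28.2 CPM, so both fell there and rose in WT.

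**Figure D5:**
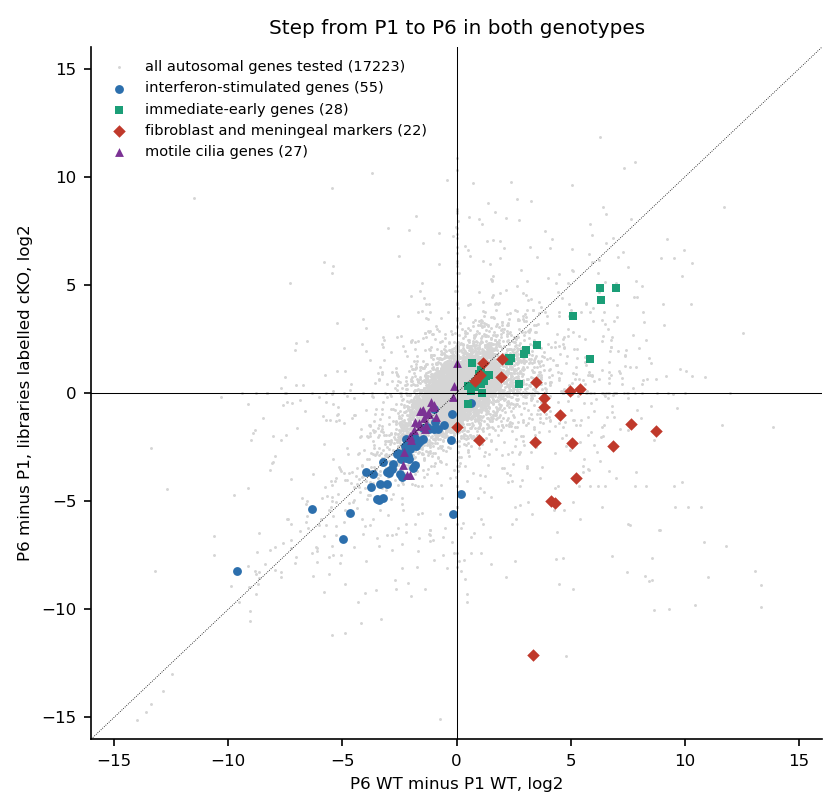
Change from P1 to P6 (edgeR, log2) in the libraries labelled cKO (vertical) against the change in WT (horizontal) for all 17223 autosomal genes tested (grey) and for 4 gene lists, with the dotted line at equal change. Interferon-stimulated and motile cilia genes lie near the line on the lower left, immediate-early genes on the upper right, and fibroblast and meningeal markers to the right, with a median of -1.24 on the vertical axis.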

How the data were processed

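RNA of cultured mouse astrocytes was measured in 12 libraries, 2 for each of 6 groups of genotype and postnatal day, of which the 4 WT libraries of P1 and P6 are compared here. Reads were mapped by the authors with HISAT2 to mm10, per the labels. The deposited values are raw counts per gene, and for the counting program, its annotation and its strand setting nothing is given in the sources used here. Of 281 genes that the naming rule picks, 42 share exon bases with another gene, so their reads may not be told apart. Positions came from GENCODE vM21 (GRCm38), in which 18873 of 18903 identifiers were found, and 26 symbols are carried by more than 1 identifier. No per-sample column was left out.

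Counts were fitted with edgeR 4.0.16 in R 4.3.3 (TMM factors, filterByExpr, quasi-likelihood test) with 1 mean per group over all 12 libraries, which pools the spread between replicates. p-values were adjusted by Benjamini-Hochberg over all 17938 genes tested, and a gene was called at an adjusted p below 0.05 where it also differed 1.5-fold or more. Genes on the X and Y chromosomes (643) and with no position on them or the autosomes (72) were left out of the counts. The interaction was called at an adjusted p below 0.05. Standard errors were derived from the log2 change and its F statistic. A group without counts was set to 3 counts over the group for a bound on the fold, which covers counting error only. Levels between genes were compared as RPKM, from exonic length. With 2 libraries a group an exact permutation test cannot go below p = 0.333, so only the fit over all genes was used. The procedure was tested on simulated data.

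The comparison, the 56 gene lists and the naming rule were chosen with earlier results of these data known. Symbols of the form Gm plus digits or ending in Rik were left out of the rankings of largest change and strongest interaction. The rule named the 12 largest rises and falls at 5 CPM or more, the 6 largest gains and losses of CPM, in each biology list up to 2 called rises, 2 called falls and the 2 members of highest RPKM, in each cell type list the 3 members of highest CPM, and 4 genes with the strongest interaction in each direction. Genes outside it were picked after their values were seen, namely Isg15, Ifit1, Cxcl10, Oas3, Gbp5, Gfap, Tyrobp, Csf1r, Ptprc, Mrc1, Foxc1, Foxc2, Tbx18, Prrx1, Ier3, Jund, H19, Reln, Nrgn, Irgm1, Tgtp1 and Tgtp2, and other members named only as exceptions. Alternatives were DESeq2 1.42.0, DESeq2 size factors, no filter, the 4 libraries alone, a replicate block, a GC and length correction, other thresholds and leaving out each library. The replicate numbers did not pair the libraries. Some genes that the rule picks are not reported here.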

Additional observations from a re-analysis of the deposited data

Results flagged for a closer look

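Of the 190 genes given with values in the report, 111 differed between the genotypes in their change from P1 to P6, as tested by the interaction in edgeR's quasi-likelihood fit at a Benjamini-Hochberg adjusted p below 0.05. Each value below is that difference on the log2 scale, the change in the libraries labelled cKO minus the change in WT. For genes with no count in a group its size depends on the prior count. None of these differences was traced to a cause. Over all autosomal genes 15.3% passed the same test, but 111 of 190 cannot be compared with that share. Many of the 190 genes were picked for their change in WT, which is part of the difference tested, and some for a strong interaction. The count therefore does not show that genotype differences are more frequent among them.

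Among genes that rose in WT and changed less or in the other direction in the libraries labelled cKO, the difference was -23.18 for Epyc, -22.19 for Prdm6, -21.27 for Atp6v0a4, -18.86 for Prl2c2, -15.44 for C4bp, -15.38 for Ptgis, -13.99 for Nrgn and -13.70 for Igf2. Next in size were -13.11 for Dnah8, -11.48 for Actg2, -10.49 for Mgp, -9.51 for Aspn, -9.43 for Dcn, -9.29 for Foxd1, -9.15 for Col3a1 and -9.10 for Igfbp6. These were followed by -9.08 for Cdh5, -8.68 for H19, -8.43 for Wnt2, -7.67 for Col6a3, -7.36 for Tbx18, -6.72 for Fbn2, -6.62 for Epha1 and -5.80 for Ptgs2. Further values were -5.63 for Sema3d, -5.57 for Fgf7, -5.47 for Gli1, -5.21 for Foxc2, -5.14 for Slc7a11, -4.93 for Slc1a6, -4.91 for Dkk2 and -4.89 for Col1a2. Then came -4.40 for H2-Eb1, -4.10 for Cyp26b1, -4.04 for Foxc1, -3.62 for Mmp2, -3.38 for Thbs2, -3.12 for Nqo1, -3.07 for Lamb1 and -2.98 for Col1a1. Next in size were -2.78 for Col4a1, -2.73 for Mrc1, -2.66 for Inhba, -2.34 for Itgb3, -2.19 for Egfr, -2.13 for Egr3, -2.06 for Zic2 and -2.01 for Lmx1b. These were followed by -2.0 for Nr4a1, -1.94 for Reln, -1.90 for Cdon, -1.79 for Akap12, -1.44 for Bdnf, -1.34 for Cdkn2a, -1.29 for Fbln5 and -1.12 for Ifi27. Further values were -1.05 for Lmna, -1.01 for Fstl1, -0.97 for Flt1, -0.96 for Fn1, -0.87 for Gpr37l1, -0.71 for Itgb1, -0.67 for Jun and -0.64 for Dkk3. Then came -0.53 for Kdm6b and -0.31 for Klf6.

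Among genes that rose in WT and had a higher change in the libraries labelled cKO, the difference was 0.96 for Ccnd1, 0.94 for Gria4, 0.76 for Aldh1a1, 0.69 for Spp1, 0.42 for Igfbp5, 0.39 for Sparc, 0.35 for Gnas and 0.21 for Thbs1.

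Among genes that fell in WT and had a lower change in the libraries labelled cKO, the difference was -2.29 for Mmp9 and -0.27 for Fth1.

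Among genes that fell in WT and changed less or in the other direction in the libraries labelled cKO, the difference was 10.82 for Prnd, 8.24 for Arg1, 4.59 for Pilrb1, 4.13 for Gdf6, 2.83 for Ptgs1, 2.61 for Shh, 1.68 for Col14a1 and 1.25 for Ephb2. Next in size were 1.18 for Mmp3, 1.02 for Sox2, 0.85 for Nr2f1, 0.78 for Trib3, 0.77 for Srgn, 0.70 for Foxj1, 0.64 for Aldh1l1 and 0.49 for Cnn1. These were followed by 0.48 for Ptprz1, 0.46 for C1qa, 0.44 for Gria1, 0.43 for Slc16a3 and 0.39 for Ctss.

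Among genes not called in WT and with a lower change in the libraries labelled cKO, the difference was -5.42 for Tgtp2, -4.87 for Tgtp1, -1.95 for Irgm1, -1.0 for Ier3, -0.50 for Kcnj10, -0.48 for Glul and -0.43 for Gfap.

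Among genes not called in WT and with a higher change in the libraries labelled cKO, the difference was 1.30 for Stmn2, 0.99 for Nes, 0.71 for Sfrp1, 0.48 for Vim, 0.38 for Zmynd8, 0.30 for C1qc and 0.25 for Csf1r.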

How the results depend on the processing

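Of the settings tried, only a threshold of 2-fold moved the counts by over 1.5 times, to 1374 genes higher and 1179 lower. Leaving out 1 WT library at a time gave 1925 to 2051 genes higher and 1648 to 1759 lower, and leaving out 1 of the 8 libraries of P1 and P6 gave 2036 to 2363 genes for the interaction, where the lone library is assumed to vary like the other groups. DESeq2 on all 12 libraries called 2280 and 2098 genes and 3895 for the interaction. Of 221 named genes called, 206 to 213 kept their call when 1 WT library was left out, 221 with DESeq2 size factors and 181 at a fold of 2. One change turned over: Pcdhga1 (3.09 on the log2 scale) ranged from -0.11 without the first P6 WT replicate to 4.02 without the second. With the replicate block the counts were 2076 and 1841, and 2401 for the interaction, and the calls of Hist1h4m, Pcdhga1 and Slbp were lost. The block was not used for the report, since same-numbered libraries did not deviate together (correlations of -0.041 to 0.101 over 15 pairs, and -0.008 for P1 and P6 WT). Chosen after seeing the data, leaving out genes with uneven zeros gave 2108 and 1873 genes, and leaving out markers of other cell types 2065 and 1849. With 2 libraries a group, small changes and genes of a few counts are the least certain.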
